A study of Mus musculus with 18 samples.

Results

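The Cited2 hub is a set of chromatin loops on mouse chromosome 10 that end at a 50 kb window named for the gene Cited2, chr10:17420001-17470000 in build mm9. A loop is a pair of genomic positions, its anchors, called as being in contact more often than their surroundings. The hub was chosen from the deposited loop list as every loop with an anchor overlapping the window, plus every loop joining 2 partner anchors of those loops. This gave 16 loops at Cited2 and 2 further loops, so 18 of the 20926 loops in the list. The 14 domains of the deposited domain list that overlap chr10:16200001-18700000 were described with them, of 13483 domains in all. A domain is a segment of the chromosome with more contacts within it than across its ends. The locus was picked because many loops meet there, so the number of its loops and their positions are a description and carry no test.

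The series used Micro-C, which digests chromatin with micrococcal nuclease, ligates ends that are near each other in the nucleus and sequences them as pairs. All 18 samples came from an LDB1-AID subline of G1E-ER4, a mouse erythroblast line that lacks endogenous GATA1 and carries it as a fusion with a hormone-binding receptor domain. In the subline, LDB1 carries an auxin-inducible degron, a tag through which auxin triggers removal of a protein. The groups were 9 untreated samples and 9 samples after 4 h of auxin, and both groups share the degron and the fusion protein. The labels do not say whether the subline is a single clone, whether replicates were separate cultures, or whether hormone was given. The series has 1 loop list and 1 domain list, which hold coordinates only. The samples and the treatment from which they were called are not given in the sources used here. No contact strength, sample depth, replicate error or auxin effect was therefore analysed here, and all values are counts and distances in the lists. A contact below the callers' thresholds is missing from the lists, so an unlisted loop is not evidence of an absent contact.

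CITED2 is a transcriptional co-regulator that binds the histone acetyltransferases CBP and p300. It competes with the hypoxia factor HIF1A for them, and it is needed for normal heart development and for maintaining blood stem cells. LDB1 has no DNA-binding domain of its own. In erythroid cells it joins complexes with GATA1, TAL1 and LMO2 on enhancers and promoters, and its self-association can bring distant sites together.

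The promoter of Cited2 is shown because the hub is named for this gene. The sequence is from RefSeq, build GRCm38.p6, and holds the 250 bases before the annotated start on the plus strand. It was matched by gene symbol and was not placed on an mm9 anchor, since no mm9 gene table was used here. Capitals mark an E-box and 2 GC boxes, the second of them on the minus strand.
Cited2 promoter: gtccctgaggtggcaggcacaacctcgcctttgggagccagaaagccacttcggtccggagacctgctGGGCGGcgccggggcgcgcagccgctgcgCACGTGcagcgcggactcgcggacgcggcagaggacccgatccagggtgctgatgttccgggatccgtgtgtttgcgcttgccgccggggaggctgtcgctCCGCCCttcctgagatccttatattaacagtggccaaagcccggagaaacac

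Motifs were searched on both strands of these 250 bases and of the same stretch in all 32851 promoters of the table. CACGTG, the E-box form bound by factors such as USF and MYC, occurred 1 time in the Cited2 promoter, starting at -153 from the start site. It was found in 6.02% of all promoters. It was also the only match to the general E-box CANNTG, which 66.2% of promoters held. GGGCGG, the GC box bound by SP1-type factors, matched at -182 and -52 and was present in 32.7% of promoters. The letters bound by GATA factors had 0 matches in any of the 4 forms searched. Of all promoters, 9.99% held the form AGATAA. The form AGATAG was present in 7.71%, and 7.94% of promoters had the form TGATAA. For TGATAG the share was 6.35%. The E-box form CAGATG, present in 14.4% of promoters, had 0 matches, and the form CAGCTG, which 13% of promoters held, had none either. The letters CCCTC, found in 60.5% of promoters, and the box named TATAAA, found in 12.4%, had 0 matches too. These counts concern letters in this stretch only and say nothing of factor binding. The Cited2 promoter was 66.8% G or C with 26 CpG dinucleotides, against medians of 52.4% and 6 over all promoters.

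Cited2 was placed among its neighbours by the RefSeq gene order of GRCm38, without distances. Towards lower coordinates its next protein-coding genes were Nmbr, the receptor for neuromedin B, then Gje1, a gap junction family gene, and Vta1, which acts in endosomal sorting. Beyond these came Adgrg6, an adhesion receptor needed for myelination, and Hivep2, a zinc finger transcription factor. Between Nmbr and Cited2 the table listed 17 genes of other types. That no protein-coding gene lies between them follows from how neighbours were chosen. Towards higher coordinates the order was Txlnb (beta-taxilin, a muscle protein), Heca (the headcase homologue), Abracl, Reps1 (an endocytic adaptor) and Ect2l, with 1 gene of another type between Cited2 and Txlnb. The gene table and the lists differ in build, so no gene was assigned to a partner anchor.

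The loops left Cited2 in both directions, from adjoining positions. There were 11 loops to lower coordinates, the side of Nmbr, and 5 to higher coordinates, the side of Txlnb. Each anchor was 10 kb wide, and the 16 loops used 9 distinct anchors within the window. Of the 11 lower-running loops, 5 had the anchor chr10:17437501-17447500 and 3 had chr10:17440001-17450000. The remaining 3 used chr10:17438001-17448000, chr10:17432501-17442500 and chr10:17420001-17430000. In all, 10 of the 11 anchors had the 2.5 kb chr10:17440001-17442500 in common.

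The 5 higher-running loops began farther along the chromosome. Of these, 2 used chr10:17447501-17457500, and 1 each used chr10:17448001-17458000, chr10:17450001-17460000 and chr10:17460001-17470000. The 7.5 kb chr10:17450001-17457500 was common to 4 of the 5. It lay 7.5 kb past the stretch that the lower-running anchors shared. No anchor midpoint of a lower-running loop lay above that of a higher-running loop, so the midpoints of the 2 directions did not overlap, although some of the 10 kb anchors did. In the plot of Cited2-side anchors this appears as a step from left to right. At the edges of the window, the anchors at chr10:17420001-17430000 and chr10:17460001-17470000 touched the limits, and widening the window by 10 kb on each side added no loop.

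**Figure D1:**
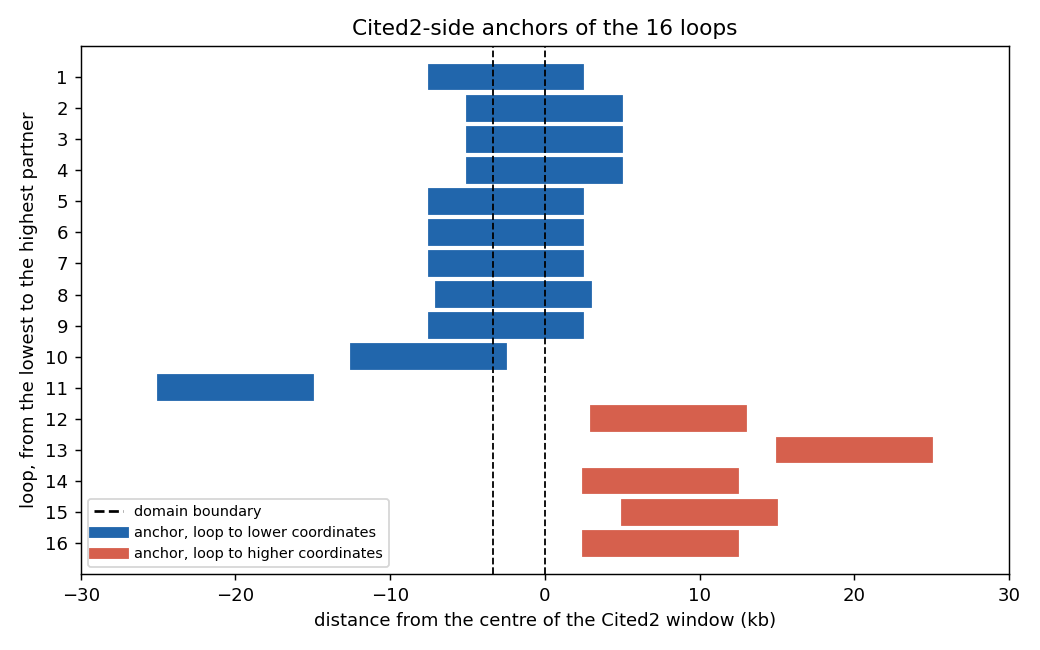
Each bar is the 10 kb Cited2-side anchor of 1 of the 16 loops, placed by distance in kb from the centre of the Cited2 window. The y axis orders them from the lowest to the highest partner. Dashed lines are the 2 listed boundary positions in the window. The midpoints of the 11 lower-running anchors (blue) lie from -20 to 0 kb and those of the 5 higher-running anchors (red) from 7.5 to 20 kb.

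A domain boundary passed through the same place. The domain chr10:17168334-17441666 ended where the domain chr10:17441667-17955000 began, and a larger domain, chr10:16335001-17445000, ended 3.33 kb farther on. Relative to position 17441666, the midpoints of the 11 lower-running anchors lay at -16.7 to 3.33 kb, with a median of 0.834 kb, 2 below and 9 above. The midpoints of the 5 higher-running anchors lay at 10.8 to 23.3 kb, all above. Relative to position 17445000, lower-running midpoints lay at -20 to 0 kb, 8 below, 0 above and the others on it. Higher-running ones lay at 7.5 to 20 kb. The side on which most lower-running midpoints fell thus depended on which boundary was taken, and their median offsets were smaller than the 10 kb anchors. None of the domains in the list held the whole Cited2 window, and 3 overlapped it.

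The partners on the lower side extended over more than 1 Mb and were densest near Cited2. Spans, measured between anchor midpoints, ran from 90 to 1120 kb for the lower-running loops, with a median of 230 kb. The closest partners formed a chain, with loops of 90 kb to chr10:17330001-17340000, 115 kb to chr10:17317501-17327500, 130 kb to chr10:17307501-17317500, 148 kb to chr10:17290001-17300000 and 160 kb to chr10:17277501-17287500. These 5 anchors lay within 62.5 kb. The next partners were chr10:17207501-17217500, reached by a 230 kb loop, and chr10:17192501-17202500, reached by a 245 kb loop. Beyond them, single loops of 390, 450 and 640 kb reached chr10:17050001-17060000, chr10:16990001-17000000 and chr10:16800001-16810000. The farthest partner was chr10:16317501-16327500 at 1120 kb, the only Cited2 loop among the 835 loops of the list that exceed 1 Mb.

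The higher side had fewer partners, and they formed 3 groups. A pair of loops with spans of 136 and 130 kb ended at the overlapping anchors chr10:17584001-17594000 and chr10:17590001-17600000. Another pair, of 465 and 480 kb, ended at chr10:17912501-17922500 and chr10:17930001-17940000, which are 7.5 kb apart. The last loop, of 660 kb, ended at chr10:18107501-18117500. The median span of the 5 loops was 465 kb. All 16 loops together had a median span of 237.5 kb and quartiles of 134.5 and 468.75 kb, against a median of 175 kb and quartiles of 92 and 330 kb over the whole list.

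Overlapping partner anchors were merged, which gave 15 partner regions, 11 on the lower side and 4 on the higher side. Partner regions with gaps of up to 10 kb were also joined, and this left 9 clusters. Loop coordinates fall on grids of different step. Of the 16 loops, 8 had coordinates in steps of 5 kb, 6 in steps of 10 kb and 2 in steps of 2 kb. The 3 lower-side loops of 390 to 640 kb were all on the 10 kb grid, while the 1120 kb loop was on the 5 kb grid. The 8 loops on the 5 kb grid had a median span of 237.5 kb, the same as all 16.

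**Figure D2:**
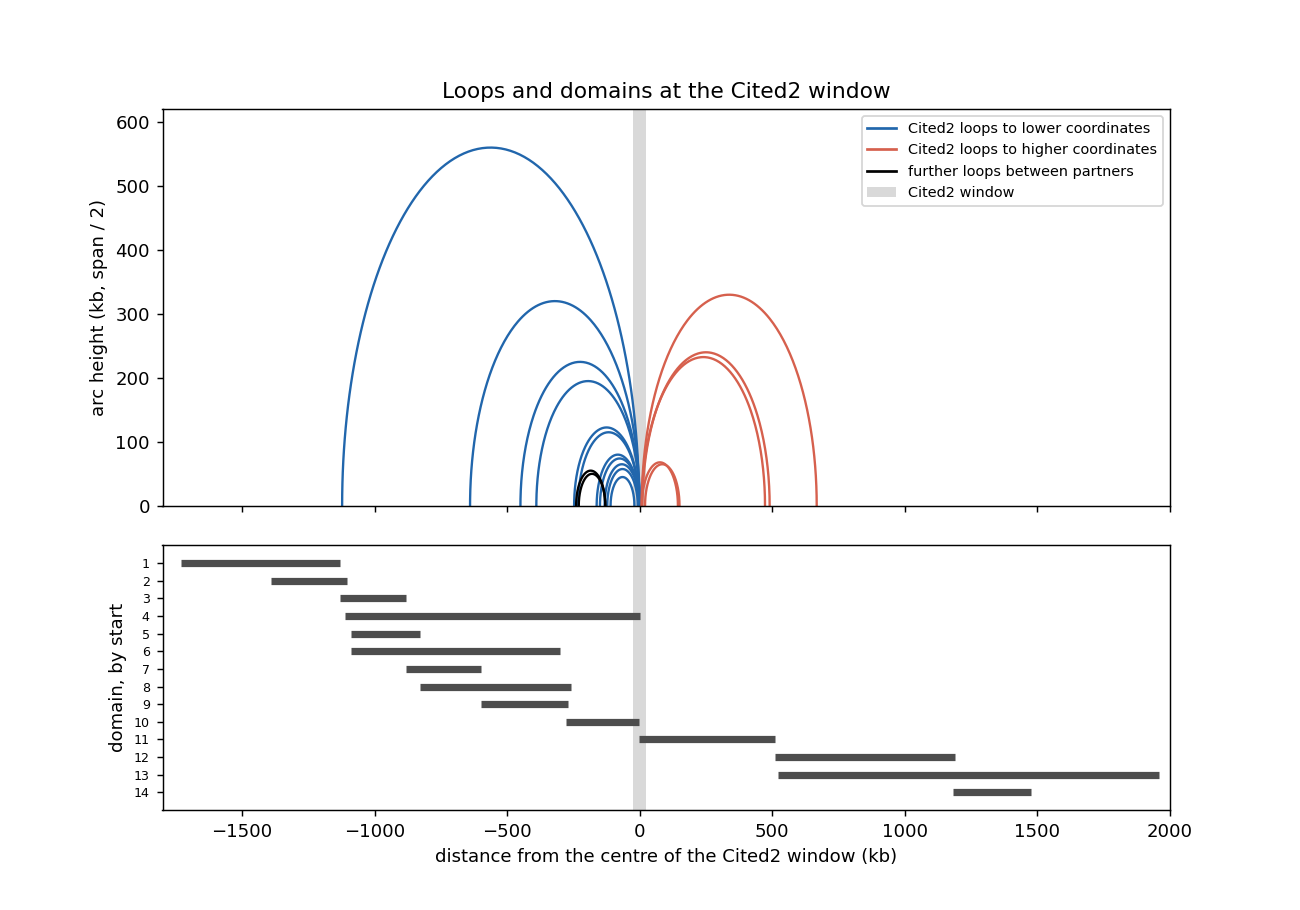
Upper panel: the 18 loops as arcs between anchor midpoints, by distance in kb from the centre of the Cited2 window (grey), with an arc height equal to the span divided by 2. Lower panel: the 14 domains, numbered by start. The 11 lower-running loops (blue) reach 1120 kb, the 5 higher-running loops (red) 660 kb, no arc passes over the window, and both further loops (black) join partners on the lower side.

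The list held 2 further loops between the partners themselves. Over all anchor regions of the list with 5 or more loops the median was also 2, and it was 4 over those with 10 or more. Both further loops at Cited2 were on the lower side and on the 10 kb grid. They ran from chr10:17200001-17210000 and from chr10:17210001-17220000 to the same anchor, chr10:17310001-17320000, with spans of 110 and 100 kb. Between them, their left ends overlapped the partner anchors 230 and 245 kb from Cited2, and their right end overlapped those at 115 and 130 kb. Cited2 and these 2 places were thus joined pairwise by loops. Among the 9 clusters there were 36 pairs, and 1 pair was joined. No listed loop joined a partner on the lower side with a partner on the higher side. This follows from the absence of any listed loop passing over the Cited2 window.

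Other loops touched the partners at 2 places, both on the higher side. A 142 kb loop joined chr10:17770001-17780000 to chr10:17912001-17922000, which overlaps the partner 465 kb from Cited2. A 140 kb loop joined chr10:17960001-17970000 to chr10:18100001-18110000, which overlaps the partner at 660 kb. On the lower side, no partner region had a loop other than those to Cited2 and the further loops. Linking all merged anchor regions through shared loops put the Cited2 region in a network of 16 regions and 19 loops, 1800 kb long. Its 14 loops were most of that network. The list had 3826 networks with a median of 2 regions, and 255 had 16 or more.

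Loops on the sides of Cited2 differed in how many belonged to the hub. Between position 16200001 and the upper end of the window the list held 13 whole loops, and all 13 were hub loops. Between the lower end of the window and position 18700000 it also held 13 whole loops, of which 5 were hub loops. The rule of choice makes any loop between partners a hub loop. The same shares were not computed beside other regions, and the difference between the sides was not tested. No loop passed over the Cited2 window from one side to the other.

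The domain chr10:16335001-17445000, 1110 kb long, covered most of the lower side. It held 12 loops, of which 10 were Cited2 loops and 2 the further loops. Counted by merged anchor region, 9 of these 12 loops (75%) ended at the Cited2 region. In the 1232 domains of the list with 10 or more loops inside, the region with the most loops took a median of 35.3% of them (quartiles 27.3 and 43.8%), and 4 domains, this one included, reached 75%. These shares use the loops by which the locus was chosen and are a description.

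Inside this domain lay 6 smaller ones. Of these, chr10:16355001-16615000, chr10:16355001-17145000, chr10:16565001-16845000, chr10:16615001-17185000 and chr10:16845001-17175000 had no loop inside, as was so for 50.2% of all domains. The domains chr10:16355001-17145000 and chr10:16615001-17185000 each held 3 partner midpoints, at 390, 450 and 640 kb from Cited2, so the loops from them left the smaller domain and ended at Cited2. The domain next to Cited2, chr10:17168334-17441666, held 7 partner midpoints and 4 loops, namely 2 Cited2 loops and the 2 further loops. For the other 5 of its partners, the midpoint of the Cited2-side anchor lay past its end by 0.834 or 1.33 kb, less than the 10 kb width of an anchor.

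On the higher side, chr10:17441667-17955000 held 4 of the 5 Cited2 loops among 6 loops inside. The fifth, of 660 kb, ended past this domain, in chr10:17955001-18635000 and in chr10:17965001-19405000. These held 6 and 14 loops inside, none of them of the hub. The other domains of the region were chr10:15715001-16315000, chr10:16055001-16341666 and chr10:16315001-16565000 at the low end, with no loop inside, and chr10:18625001-18921666 at the high end, with 6.

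By midpoints, 14 of the 16 Cited2 loops lay inside 1 domain. Over the whole list this was so for 86.5% of loops, a share close to that of the hub when midpoints on a domain edge count as inside. The 2 exceptions were the loops of 1120 and 660 kb. The count depended on the boundary at Cited2, since lower-running anchors reach across the ends of both domains. With midpoints on a domain edge left out, 11 loops remained, 7 of the 11 lower-running and 4 of the 5 higher-running loops. The share of all loops under that rule is not given here. When whole anchors had to lie in a domain, 6 loops remained, 2 of the 11 lower-running and 4 of the 5 higher-running loops, against 84.5% of all loops. With domains that hold no other domain, 6 loops remained, against 60.4% of all loops. They were 2 of the 11 lower-running and 4 of the 5 higher-running loops. Other lower-running loops from the domain next to Cited2 were left out because their Cited2-side midpoint lay 0.834 or 1.33 kb past its end.

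A corner loop joins the start of a domain to its end, here with each anchor midpoint within 20 kb. The 1120 kb loop was such a loop of the 1110 kb domain on the lower side. The 480 kb loop was one of chr10:17441667-17955000 on the higher side, with its partner exactly 20 kb from the domain end. Corner loops were found for 5.13% of all domains. A further domain of the region, chr10:18625001-18921666, had a corner loop that did not involve Cited2. Of the 15 partner regions, 3 had a midpoint within 20 kb of a boundary, at 7.5, 12.5 and -20 kb from it, compared with 24.6% of the 20368 merged anchor regions of the list. The other 12 lay farther from any boundary.

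To set the hub beside others, overlapping anchors were merged over the whole list. The Cited2 region then was chr10:17432501-17460000, 27.5 kb wide, with 14 of the 16 loops. The other 2 loops had the anchors at the edges of the window, which overlap no other anchor. With 14 loops the region ranked 4 in the list together with 3 others, behind 3 regions with 15 loops. Regions with 1 loop numbered 10608, and 1580 had 5 or more.

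**Figure D3:**
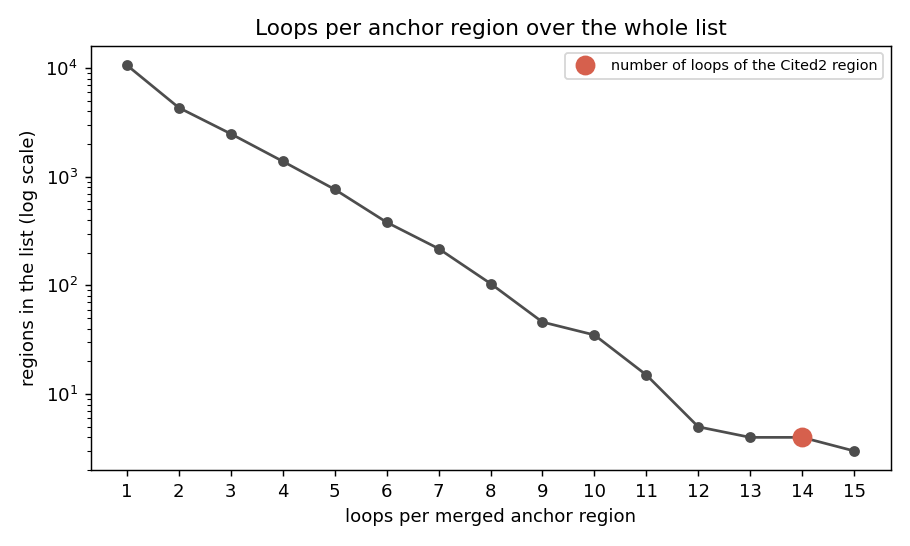
Number of merged anchor regions in the list (y axis, log scale) by the number of loops per region (x axis). The Cited2 region, with 14 loops, belongs to the red point, which stands for 4 regions, and 3 regions have 15 loops.

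The Cited2 region had 12 partner regions, and 7 regions of the list, itself included, had as many or more. No loop spanned over it. Among the 1580 regions with 5 or more loops this was so for 17.3%, with a median of 3 spanning loops, and among the 66 regions with 10 or more loops for 13.6%. It held 2 domain boundaries, 3.33 kb apart. Of the 1580 regions with 5 or more loops, 21.3% held at least 1 boundary, and 143, the Cited2 region included, held 2 or more. Its loops ran both ways, as in 63.3% of these regions. Of regions with loops both ways, 43.8% had all midpoints of lower-running anchors below those of higher-running anchors, as the Cited2 region did. It had 2 further loops between its partners. At least 1 further loop was found for 83.2% of regions with 5 or more loops, the median being 2, and regions with 10 or more loops had a median of 4. The median span of its 14 loops was 317.5 kb, compared with a median of 190 kb over the regions with 5 or more loops and 206.25 kb over those with 10 or more. Of the latter 66 regions, 19 had a median span of 317.5 kb or more, the Cited2 region included.

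Among the 7 regions with 14 or more loops, the Cited2 region was the only one that no loop spanned. The numbers of spanning loops in the other 6 were 1 on chromosome 17, 3 and 7 on chromosome 12, 3 on chromosome 16, 5 on chromosome 15 and 13 on chromosome 4. Further loops numbered 2 at Cited2 and 2 on chromosome 16, and 5 to 11 at the other 5 regions. The partner regions numbered 12 at Cited2 and on chromosome 17, and 9 to 11 elsewhere. The median spans of the other 6 ran from 267.5 to 1745 kb, and 4 of them exceeded that of the Cited2 region. Loops ran 10 to lower and 4 to higher coordinates at the Cited2 region, near the 9 and 5 of the region on chromosome 15. With a single list and no replicates, these differences were not tested.

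**Figure D4:**
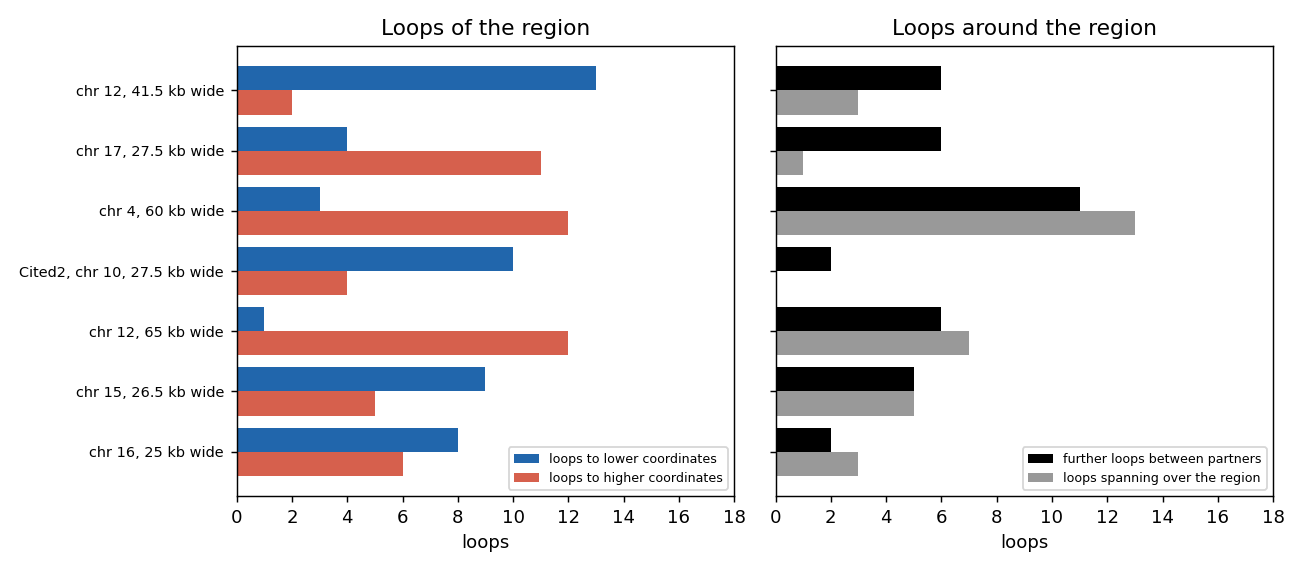
The 7 anchor regions with 14 or 15 loops, named by chromosome and width. Left: loops to lower (blue) and to higher (red) coordinates; right: further loops between partners (black) and loops spanning over the region (grey), with the number of loops on the x axes. The Cited2 region has 10 and 4 loops, 2 further loops and 0 spanning loops; 1 loop of the 65 kb region on chromosome 12 has both anchors inside that region and is in neither bar.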

How the data were processed

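Micro-C libraries were made by micrococcal nuclease digestion, proximity ligation and isolation of dinucleosome fragments, per the labels' protocols. The authors deposited 1 loop list and 1 domain list, tied to no single sample, with coordinates in bp and no header, score or value per sample. The build is mm9, per the submitters' processing notes. The aligner, callers, resolutions and pooling of samples are not given in the sources used here, and depth per sample is unknown.

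Starts were read as counted from 0 and are printed counted from 1. Anchors overlapping by at least 1 bp were merged, midpoints on a domain edge counted as inside, and boundaries were distinct domain starts and ends. Loop grids were read from anchor starts. The counting of regions was checked on simulated loops, where 20 of 20 planted hubs were recovered. These hubs lay far apart with no loop spanning over them, so this checks the counting only. Python 3.11.15, numpy 2.4.6, pandas 2.3.3, scipy 1.17.1 and matplotlib 3.10.9 were used. Genes named were Cited2 and up to 5 protein-coding neighbours on each side, and regions named were all partners and those with at least as many loops. Members, motifs and lists were chosen with earlier results of these data known. No test was run.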

Additional observations from a re-analysis of the deposited data

How the results depend on the processing

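Of 26 alternatives to 10 results, 14 stayed within 1.5 times the reported count, or within the order-statistic interval of the median span, and 12 moved further. That interval, 130 to 480 kb, served as a tolerance only, since the 16 loops were chosen by 1 window and are not independent. Of the 26, 4 were chosen after seeing the data. With 5 kb grid loops only, there were 8 Cited2 loops and 8 partner regions. Merging partners up to 10 kb apart gave 9 regions. Identical anchor coordinates gave 0 further loops. Leaving out domains with another inside them left 9 domains in the 2.5 Mb window and 6 Cited2 loops inside 1 domain, and whole anchors also gave 6 loops. Of the domains, 0 held the Cited2 window and 3 overlapped it. A distance of 10 kb left 1 partner region near a boundary, and one of 40 kb gave 6 in place of the 3 reported. The share over all merged anchor regions is given for 20 kb only, so these 2 counts have no background. The rank of the Cited2 region by loops was 4, and it was 2 with each contact counted once and 2 by distinct partner regions. The alternatives' own construction (fewer loops or domains kept, other distances) sets these counts. Leaving out midpoints that lie on a domain edge gave 11 loops inside 1 domain, compared with 14, with no share of all loops under that rule.

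No paired analysis was possible because neither list gives values for single samples, although the replicates of both groups are numbered from 1 to 9. The unknown depth limits what an unlisted loop means.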
